A study of Mus musculus with 9 samples.

Results

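The transcripts of the IL-7 receptor and of the common gamma chain (γc) pathway were followed in mouse thymocytes of mice with active β-catenin, in their thymic tumours and in normal cells. The pathway was taken as 10 genes, and every probe set of the array that named 1 of them and no other gene was used. Of the 10 genes, 9 were read, by 19 of 45037 probe sets, among 18193 genes named in this way. No probe set was named for Il2rg, the γc chain itself, in the annotation used, so that Il2rg was not analysed here. Each of 9 C57Bl/6 mice gave 1 oligonucleotide array, and p-values measure the spread between these mice.

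The tumour group held thymic tumours of 4 R26NC/NC CD4Cre+ mice aged 28, 26, 23 and 21 weeks (tumours 1 to 4). The tumours were not sorted, and at least 95% of their cells were CD4+CD8+ double-positive (DP). The pre-transformed group held DP thymocytes of 3 R26NC/NC CD4Cre+ mice aged 6 weeks, before any tumour. The control group held DP thymocytes of 2 R26NC/NC CD4Cre- mice of the same age. Both sets of DP thymocytes were sorted to over 98% purity. The R26NC/NC allele was shared by all groups and gives active β-catenin only where Cre acts, here under Cd4 control and so from the DP stage on. All tumour and pre-transformed mice carried Cre and no control did. Tumours were labelled from 2.5 µg RNA by the standard protocol and sorted cells from 0.1 µg with an amplification kit. Age, sorting, labelling and transformation therefore cannot be told apart in the tumour comparisons, and both of these share the tumour arrays.

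Receptors of this family pair a cytokine-specific chain with γc. For IL-7 that chain is IL-7Rα, the product of Il7r. JAK1 docks on the specific chain and JAK3 on γc, and ligand binding lets them phosphorylate STAT5A and STAT5B, which enter the nucleus. SOCS proteins, many of them STAT targets, feed back on the kinases. In the thymus IL-7 sustains double-negative (DN) precursors, Il7r is shut off at the DP stage, and it returns in cells selected to become mature single-positive T cells.

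Values are the authors' MAS5 signals on a linear scale, on which every array had a 2%-trimmed mean of 100. A group was called dim for a probe set if its geometric mean lay below the mean 65th percentile of its own arrays (36.2 in tumours, 43.7 in pre-transformed cells and 40.8 in controls). Against a dim group a fold is given as at least the brighter mean over that percentile, and between 2 dim groups none is given. Tumour arrays had a higher background than sorted arrays: 27 probe sets for bacterial transcripts averaged 1.38 to 2.15 on tumour arrays, 0.507 to 0.831 on pre-transformed arrays and 0.407 to 0.744 on control arrays. The log2 ratio of the 3′ over the 5′ probe set of Actb, a measure of RNA integrity and labelling, was 0.544 to 1.14 on tumour arrays, 0.198 to 0.348 on pre-transformed arrays and 0.243 to 0.263 on control arrays. The part of background, labelling and RNA integrity in the results below was not tested. In bulk RNA of this kind, fewer cells of a type and less RNA per cell cannot be told apart.

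The 9 genes were divided when tumours were set against pre-transformed cells: by the brightest probe set of each, Il7r was higher and the other 8 were lower. For Stat5a and Stat5b the direction depends on the probe set, as given below. With limma and Benjamini-Hochberg adjustment over 11644 genes, 1 of the 9 was called higher and 8 lower, at an adjusted p under 0.05. Genes were tested if at or above the array's median on at least 2 arrays. Il7r passed this filter on low signals only through the tumours, and Il2ra only through the sorted cells. The direction of their calls was therefore built into their being tested. Of all genes, 54.9% were called in this comparison, 23.9% higher and 31.0% lower. The groups did not overlap for 9 of 9 genes, against 57.0% of all genes. The median log2 difference was −1.48 over the 9 genes and −0.12 over all genes. Against controls, 1 gene was called higher, 4 lower and 4 in neither direction, with 45.7% of all genes called (20.5% higher, 25.2% lower), and 8 of 9 did not overlap, against 60.5% of all genes. The 5 calls against controls became 2 without control 1, 3 without control 2 and 8 without tumour 3. Over all genes the calls went from 5323 to 2584, 3182 and 5674 in the same order. With the mean of its probe sets standing for each gene, 1 gene was called higher and 6 lower against pre-transformed cells, and 3 higher and 4 lower against controls. Of all 11644 genes, 2883 were then called higher and 3308 lower against pre-transformed cells, and 2456 and 2651 against controls. Between pre-transformed and control cells 0 of the 9 were called by limma, with 1.63% of all genes called (1.11% higher, 0.524% lower). Pre-transformed and control arrays did not overlap for 5 of the 9, against 36.3% of all genes.

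**Figure D1:**
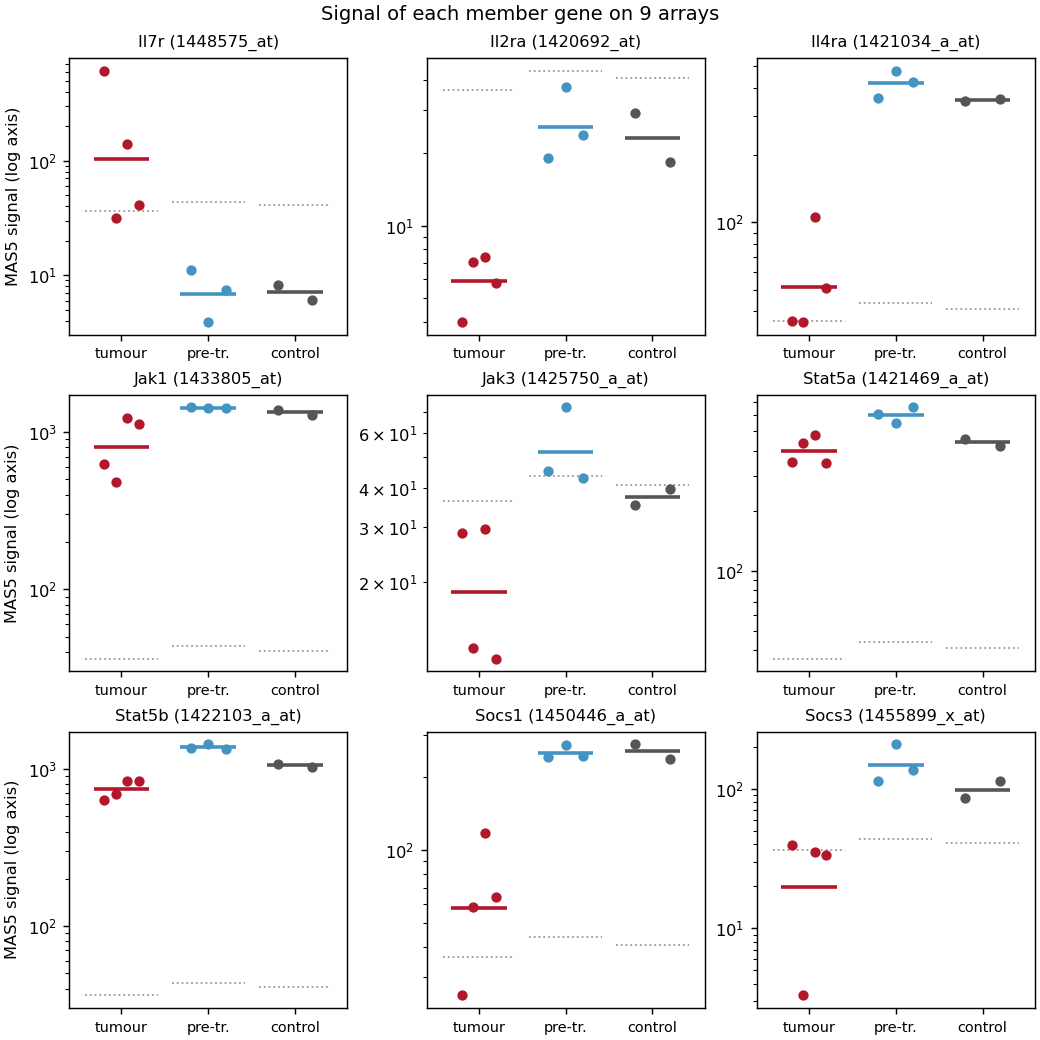
MAS5 signal (log axis) of the brightest probe set of each of the 9 genes on the 4 tumour, 3 pre-transformed and 2 control arrays. Points are arrays, thick lines are geometric means of the group, and dotted lines mark the mean 65th percentile of the group's arrays. Il7r was the gene that was higher in tumours, with 103 against 6.82 in pre-transformed cells and 7.07 in controls.

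Promoters are shown for the receptor gene that was higher in tumours and for the SOCS feedback genes that were lower, because STAT5 is known to bind TTCNNNGAA elements. Each is the run of 250 bases before the transcription start, on the gene's own strand, in RefSeq for GRCm38.p6, with a match to TTCNNNGAA in capitals.
Il7r, chr15:9529877-9530126, minus strand: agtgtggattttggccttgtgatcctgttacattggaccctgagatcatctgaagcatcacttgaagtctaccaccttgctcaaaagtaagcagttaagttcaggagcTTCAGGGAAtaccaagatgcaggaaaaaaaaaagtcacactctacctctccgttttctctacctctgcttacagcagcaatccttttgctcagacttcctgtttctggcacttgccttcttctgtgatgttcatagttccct
Socs3, chr11:117969367-117969616, minus strand: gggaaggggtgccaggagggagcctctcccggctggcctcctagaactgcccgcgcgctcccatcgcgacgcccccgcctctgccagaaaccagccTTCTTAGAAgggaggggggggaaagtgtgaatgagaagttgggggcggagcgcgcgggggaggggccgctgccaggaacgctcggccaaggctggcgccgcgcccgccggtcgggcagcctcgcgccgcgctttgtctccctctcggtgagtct
Socs1, chr16:10785537-10785786, minus strand: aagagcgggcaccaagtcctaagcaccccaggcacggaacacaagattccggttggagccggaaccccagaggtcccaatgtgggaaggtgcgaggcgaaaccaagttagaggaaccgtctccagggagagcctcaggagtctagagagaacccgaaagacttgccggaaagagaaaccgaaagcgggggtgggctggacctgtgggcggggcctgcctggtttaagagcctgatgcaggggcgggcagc
The motif reads the same on both strands. It was found in 2 of 11 promoters listed for the pathway genes, those of Il7r (first base at −142) and Socs3 (first base at −154), and in 2306 of 32851 promoters of the same length (7.02%). The same palindrome with a spacer of 4 bases, known for STAT6, was found in 0 of the 11 and in 5.85% of all promoters. A match describes the letters of the window and was tested for nothing else.

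Il7r was higher in tumours by both of its probe sets, and the tumours differed widely among themselves. The signal of 1448575_at was 612.1, 31.5, 140.4 and 41.0 in tumours 1 to 4, against 11.0, 3.9 and 7.4 in pre-transformed cells and 8.2 and 6.1 in controls. Every tumour lay above every sorted sample, and the highest tumour was 19.4 times the lowest. All 4 tumours were at or above the 65th percentile of their own array, tumours 2 and 4 close to it, and 0 of the 5 sorted arrays were. The probe set passed the filter on low signals only through the tumours, so a difference in this direction was built into its being tested. The fitted log2 difference was 3.91 ± 0.90 (SE) against pre-transformed cells (limma adjusted p = 0.00448, at least 2.35-fold) and 3.86 ± 1.02 against controls (adjusted p = 0.0120, at least 2.52-fold). Without tumour 1 the values were 3.05 and 3.00, and the call against controls was lost without control 1 (adjusted p = 0.0631) or without control 2 (adjusted p = 0.0797).

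The second probe set, 1448576_at, gave the same order of tumours at lower signals. It read 180.9, 4.4, 40.1 and 9.7 in tumours 1 to 4, against 4.5, 0.5 and 1.8 in pre-transformed cells and 1.3 and 3.3 in controls. Tumour 2 overlapped the pre-transformed cells on this probe set, which also passed the filter only through the tumours. Its log2 difference of 3.89 against pre-transformed cells was called (adjusted p = 0.0271 over 26421 probe sets), and that of 3.51 against controls was not (adjusted p = 0.0746). Il7r was dim in pre-transformed and in control cells alike, with a log2 difference of −0.05 ± 0.55 between them (adjusted p = 0.973).

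Markers of cells other than DP thymocytes moved with part of this pattern. Of 13 myeloid markers, all named on the array, the summed signal was 3725.8, 183.7, 4035.2 and 3590 in tumours 1 to 4, against 179.9 to 337.7 in pre-transformed cells and 154.7 to 217.2 in controls. Tumour 2 thus lay within the range of the sorted cells. Of its sum, 113.2 came from Itgam, the integrin CD11b, which was higher there than on any other array (23.4 to 57.7 in the other tumours, 33.0 to 53.4 in pre-transformed cells, 4.4 and 10.8 in controls), while the monocyte and granulocyte gene Lyz2 read 3.1. Of 9 B cell markers, 8 were named, and their sum was 5718.6, 268.5, 5494 and 1940.4 in tumours, 1809 to 2098 in pre-transformed cells and 2831 to 3078 in controls, most of it from Ighm. The B cell receptor component Cd79a read 95.6, 0.5, 87.2 and 67.9 in tumours, 3.2 to 5.8 in pre-transformed cells and 2.7 to 5.1 in controls. Ms4a1, Cd22 and Blnk also exceeded every sorted sample in tumours 1, 3 and 4 but not in tumour 2. Cd79b went the other way, with 80.7, 1.3, 73.6 and 108.5 in tumours, 195.8 to 215.2 in pre-transformed cells and 235.1 and 253.9 in controls. Pax5 and Ebf1 overlapped between tumours and sorted cells. The part of these cells in the Il7r signal of tumours 1, 3 and 4 was not tested. In tumour 2, where Lyz2 and Cd79a were near 0 and Itgam was not, Il7r 1448575_at was 31.5, against at most 11.0 in any sorted sample. The 65th percentile of that tumour array was 28.5. The other probe set, 1448576_at, read 4.4 in tumour 2, against 4.5 in pre-transformed 1. With tumour 2 as the only tumour, the log2 difference of 1448575_at was 2.21 against pre-transformed cells and 2.16 against controls. This alternative was chosen after seeing the data, rests on 1 tumour array and assumes that it varies like the other groups. The part of other cells in these values was not tested.

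Markers of the stages that normally express Il7r were also summed. The 7 markers of early progenitors and DN cells summed to 180.7, 95.5, 226.9 and 235.5 in tumours, 36.6 to 46 in pre-transformed cells and 38.5 to 44.7 in controls. Tumours were thus higher than every sorted sample, although Kit, a defining gene of these cells, read 5.7 to 10.2 in tumours, 1.3 to 9.2 in pre-transformed cells and 18.6 and 19.4 in controls. The 7 named of 8 markers of mature single-positive cells summed to 283.6, 70.5, 612.3 and 359.1 in tumours, 679.7 to 863.7 in pre-transformed cells and 863.5 to 908.5 in controls, and were lower in every tumour. Most of that sum in sorted cells came from Ms4a6b, and other members ran the other way: Ms4a4b (342.8) and Klf2 (77.3) in tumour 3 exceeded every sorted sample, and S1pr1 read 16.8, 13.3 and 12.8 in tumours 1, 3 and 4, against 0.9 to 7.9 in pre-transformed cells and 1.7 and 4.2 in controls. The 10 named of 11 DP markers summed to 9062 to 14051 in tumours, 26405 to 29026 in pre-transformed cells and 25503 to 27108 in controls. Cd4 was bright in all samples (1008 to 1725 in tumours, 832.1 to 1110 in pre-transformed cells, 706.6 and 738.3 in controls). Ptcra, the pre-TCR α chain, was 2.7 to 6.8 in tumours, 213.6 to 250.6 in pre-transformed cells and 318.2 and 371.9 in controls. Stromal markers (10 of 10 named) summed to 190.5 to 447 in tumours, 171.5 to 252.3 in pre-transformed cells and 192 to 243.5 in controls. The 6 named of 7 NK and innate lymphoid markers summed to 134.7 to 183.2 in tumours, 401.6 to 671.3 in pre-transformed cells and 607.5 to 652.2 in controls, in sorted cells most of it from Gzma. The sum was lower in tumours through Gzma, and other members did not follow it. Klrd1 and Nkg7 exceeded every sorted sample in tumours 1, 3 and 4, but not in tumour 2. They read 39.4 and 18.3 in tumour 4 and 0.7 and 0.4 in tumour 2, against at most 4.9 and 3.3 in sorted cells. Eomes was higher in every tumour than in every sorted sample, and Ncr1 and Prf1 overlapped. From high to low Il7r the tumours ran 1, 3, 4, 2, and so did their B cell and stromal sums. The stromal sums of tumours 3 and 4 were close (281.3 and 275.3), and most of each came from Pecam1. Sums of the other marker lists ran in other orders, among them the myeloid (3, 1, 4, 2) and mature single-positive (3, 4, 1, 2) sums. What these orders reflect was not tested.

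**Figure D2:**
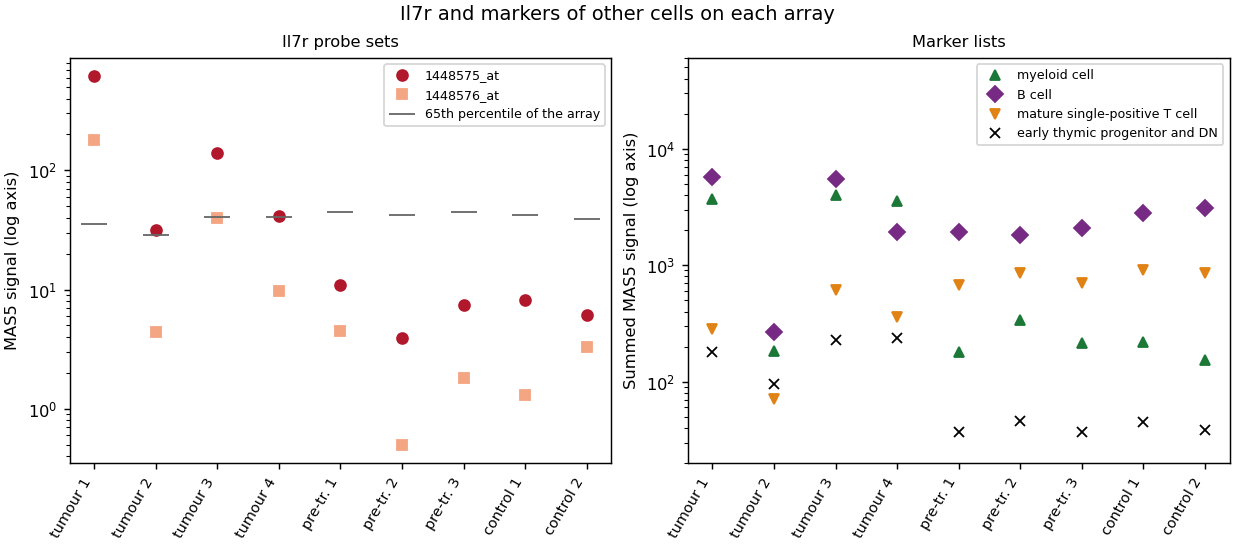
Left, signal (log axis) of both Il7r probe sets on each array, with a bar at the array's 65th percentile; right, summed signal (log axis) of 4 marker lists on the same arrays. Tumour 1 had the highest Il7r signal (612.1), and tumour 2, with a myeloid sum of 183.7 like that of sorted cells, had 31.5.

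Il2ra encodes the α chain of the high-affinity IL-2 receptor (CD25), which marks DN precursors and activated or regulatory T cells. Its brighter probe set, 1420692_at, read 4.0, 7.1, 7.4 and 5.8 in tumours, against 19.1, 37.3 and 23.8 in pre-transformed cells and 29.2 and 18.3 in controls. The groups of tumours and sorted cells did not overlap, but all 3 groups were dim, and the probe set passed the filter only through the sorted cells. Its log2 differences were −2.12 against pre-transformed cells (limma adjusted p = 0.00195) and −1.97 against controls (adjusted p = 0.00774), the second lost without control 1 (adjusted p = 0.106), and no fold is given. The other probe set, 1420691_at, read 7.1 to 11.9 in tumours, 9.4 to 12.7 in pre-transformed cells and 6.7 and 14 in controls, with no call. The 6 markers of regulatory or activated T cells summed to 220.7 to 493.9 in tumours, 695.4 to 765.2 in pre-transformed cells and 923.2 to 1059.3 in controls. The sum was lower in tumours through Ikzf2 and Tnfrsf18, while Ctla4 read 323.8, 29.7, 118.5 and 55.4 in tumours, 31.3 to 40.8 in pre-transformed cells and 17.9 and 37.5 in controls. Foxp3 read 2.0 to 13.5 in tumours, 4.4 to 9.3 in pre-transformed cells and 6.0 and 8.7 in controls. Their part in the Il2ra values was not tested.

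Il4ra, the specific chain of the IL-4 receptor, was lower in both tumour comparisons by its brightest probe set. The signal of 1421034_a_at was 36.2, 35.8, 105.5 and 50.8 in tumours, against 361.1, 478.1 and 426.3 in pre-transformed cells and 349.4 and 355.1 in controls. All tumours lay below all sorted samples, with tumour 3 the nearest to them. The log2 difference was −3.03 ± 0.34 against pre-transformed cells (limma adjusted p = 8.24e-05, 8.16-fold lower) and −2.78 ± 0.39 against controls (adjusted p = 0.000491, 6.86-fold lower). The dimmer probe set 1447858_x_at had a log2 difference of −1.50 against pre-transformed cells (adjusted p = 0.0374), but it passed the filter only through the sorted cells, where it was higher. The third, 1423996_a_at, had the same sign with overlapping values (−1.42, adjusted p = 0.0631). Pre-transformed and control cells differed by 0.25 ± 0.13 (adjusted p = 0.379).

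Jak1, the kinase that docks on the specific chains, was lower in tumours by all 3 of its probe sets, by amounts that did not match. The brightest, 1433805_at, read 626.1, 481.7, 1230.2 and 1125.0 in tumours, against 1438.2, 1421.5 and 1427.5 in pre-transformed cells and 1388.7 and 1281.9 in controls. Tumours 1 and 2 were clearly below, while tumours 3 and 4 came close to the controls. Its log2 difference was −0.83 ± 0.29 against pre-transformed cells (limma adjusted p = 0.0345, 1.78-fold lower) and −0.73 against controls (adjusted p = 0.0950). That call was lost without tumour 1 (adjusted p = 0.0837), without tumour 2 (0.0507), and without pre-transformed 1, 2 or 3 (0.0852, 0.0818 and 0.0835).

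The other Jak1 probe sets fell further. Probe set 1433803_at read 268.8, 197.3, 484.2 and 514.2 in tumours, against 758.3 to 823.3 in pre-transformed cells and 710.3 and 863.2 in controls. Probe set 1433804_at read 75.3, 59.3, 39.5 and 43.0 in tumours, against 245.3 to 473.9 in pre-transformed cells and 369.1 and 438.3 in controls. Their log2 differences against pre-transformed cells were −1.23 (adjusted p = 0.00891) and −2.71 (adjusted p = 9.1e-05), and against controls −1.21 (adjusted p = 0.0222) and −2.94 (adjusted p = 0.000249). Tumours 3 and 4, the highest by the 2 brighter probe sets, were the lowest by 1433804_at. Sorted samples differed little on 1433805_at, with a log2 difference of 0.10 between pre-transformed and control cells.

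Jak3, the kinase that docks on γc, had lower and mostly dim signals. Its 1 probe set without a second gene, 1425750_a_at, read 28.7, 12.3, 29.6 and 11.4 in tumours, against 45.1, 72.2 and 43.1 in pre-transformed cells and 35.2 and 39.6 in controls. All tumours were below all sorted samples. The log2 difference of −1.48 ± 0.41 against pre-transformed cells was called (limma adjusted p = 0.0122, at least 1.43-fold lower), and was lost without pre-transformed 2 (−1.25, adjusted p = 0.0599). Against controls it was −1.01 (adjusted p = 0.103), with both groups dim. A further pair of probe sets named Jak3 together with Insl3 and was left out.

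Stat5a and Stat5b, the transcription factors at the end of the pathway, gave opposite answers by probe set in tumours. For Stat5a, 1421469_a_at read 348.8, 435.7, 479.9 and 345.8 in tumours, against 613.6, 548.1 and 658.7 in pre-transformed cells and 458.1 and 421.1 in controls. On 1450259_a_at the same samples read 215.0, 242.0, 194.7 and 119.8 in tumours, against 74.0, 72.3 and 80.0 in pre-transformed cells and 35.0 and 32.1 in controls. Tumours were thus below pre-transformed cells without overlap on the first probe set, and above them without overlap on the second. The log2 differences against pre-transformed cells were −0.60 ± 0.16 (limma adjusted p = 0.00902, 1.52-fold lower) and 1.31 (adjusted p = 0.00233 over probe sets). Against controls they were −0.14 (adjusted p = 0.542) and 2.48 (adjusted p = 0.000299).

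Stat5b repeated the split. Probe set 1422103_a_at read 633.6, 695.9, 840.2 and 838.3 in tumours, against 1363.7, 1444.4 and 1344.7 in pre-transformed cells and 1074.8 and 1039.7 in controls. Probe set 1422102_a_at read 228.2, 289.5, 127.4 and 141.0 in tumours, against 55.3, 67.6 and 68.3 in pre-transformed cells and 35.3 and 37.8 in controls. On each, tumours and sorted cells did not overlap. The log2 differences against pre-transformed cells were −0.89 ± 0.13 (limma adjusted p = 0.000385, 1.85-fold lower) and 1.55 (adjusted p = 0.00223). Against controls they were −0.50 (adjusted p = 0.0215, 1.42-fold lower), lost without control 1 (adjusted p = 0.133) or control 2 (adjusted p = 0.0958), and 2.35 (adjusted p = 0.000811). All 4 probe sets carry the suffix _a, which the array maker gives to probe sets that match several transcripts of 1 gene. With the mean of its probe sets, each gene changed sign: Stat5a differed by 0.35 (adjusted p = 0.125) and Stat5b by 0.33 (adjusted p = 0.0845) against pre-transformed cells, and by 1.17 (adjusted p = 0.00165) and 0.92 (adjusted p = 0.00198) against controls. No direction is therefore given for the total STAT5 transcripts in tumours.

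**Figure D3:**
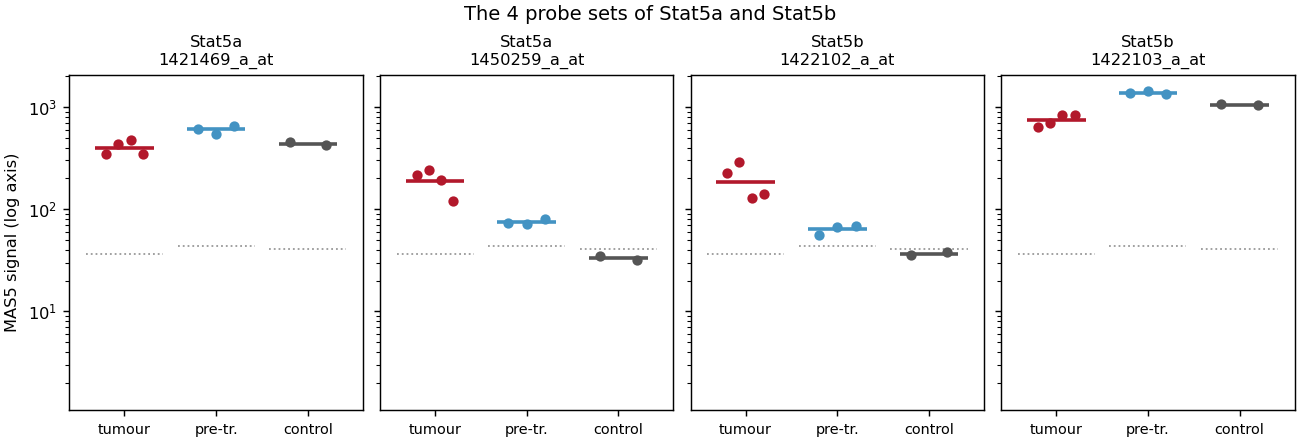
MAS5 signal (log axis) of the 4 probe sets of Stat5a and Stat5b on each array. Points are arrays, thick lines are group geometric means, and dotted lines mark the mean 65th percentile. On all 4 the pre-transformed arrays lie above the control arrays, while tumours are below the pre-transformed arrays on 1421469_a_at and 1422103_a_at and above them on the other 2.

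Between pre-transformed and control cells the 4 STAT5 probe sets did point one way. On each, all 3 pre-transformed samples were above both controls. Over genes, the log2 differences were 0.46 ± 0.12 for Stat5a (limma adjusted p = 0.0927, 1.38-fold) and 0.39 ± 0.09 for Stat5b (adjusted p = 0.0869, 1.31-fold), and neither passed. Over probe sets, 1450259_a_at of Stat5a was called (1.17 ± 0.18, adjusted p = 0.0360), the 1 call among 19 probe sets, with 0.833% of all probe sets called and 0.587% called higher, and 1422102_a_at of Stat5b was not (0.80, adjusted p = 0.111). That 1 call was lost when any of the 5 sorted arrays was left out. Stat5a was called over genes without pre-transformed 2, and both genes were called with the mean of their probe sets. In all, the groups did not overlap on 8 of the 19 probe sets, against 35.5% of all probe sets.

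Socs1, whose product inhibits JAK1 and restrains IL-7 signalling in thymocytes, was called lower in tumours in all 20 alternatives that tested it, in both comparisons. The signal of 1450446_a_at was 25.2, 58.1, 118.2 and 64.1 in tumours, against 243.2, 271.2 and 244.3 in pre-transformed cells and 274.4 and 238.7 in controls. Tumour 1 was the lowest and tumour 3 the highest of the tumours, and none overlapped a sorted sample. The log2 difference was −2.13 ± 0.41 against pre-transformed cells (limma adjusted p = 0.00175, 4.38-fold lower) and −2.15 ± 0.47 against controls (adjusted p = 0.00468, 4.43-fold lower). Pre-transformed and control cells differed by −0.02 ± 0.12 (adjusted p = 0.956).

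Socs3, a feedback inhibitor best known from gp130 cytokine receptors, was lower in tumours by all 3 probe sets. The signal of 1455899_x_at was 39.4, 3.3, 35.1 and 33.4 in tumours, against 113.6, 208.2 and 136.4 in pre-transformed cells and 84.9 and 114.0 in controls. Probe set 1416576_at, which carries no cross-hybridisation suffix, read 11.5, 1.7, 28.5 and 21.0 in tumours, against 104.9, 101.1 and 102.5 in pre-transformed cells and 73.8 and 63.9 in controls. Tumour 2 was the lowest on all 3, and no tumour overlapped a sorted sample. Against pre-transformed cells, 1455899_x_at differed by −2.90 ± 0.76 (limma adjusted p = 0.00915, at least 4.08-fold lower), and by −2.04 without tumour 2 (adjusted p = 0.000171). Against controls it missed the threshold (−2.32, adjusted p = 0.0507) and passed without any 1 of the 4 tumours (adjusted p 0.00287 to 0.0499). It did not pass without control 1 (adjusted p = 0.148), without control 2 (0.210) or without any 1 pre-transformed array (0.0682 to 0.0702). The other probe sets were called against controls, 1416576_at at −2.72 (adjusted p = 0.0388) and 1456212_x_at at −2.15 (adjusted p = 0.0187). Pre-transformed cells were above controls on 1416576_at without overlap, by 0.58 (adjusted p = 0.129).

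**Figure D4:**
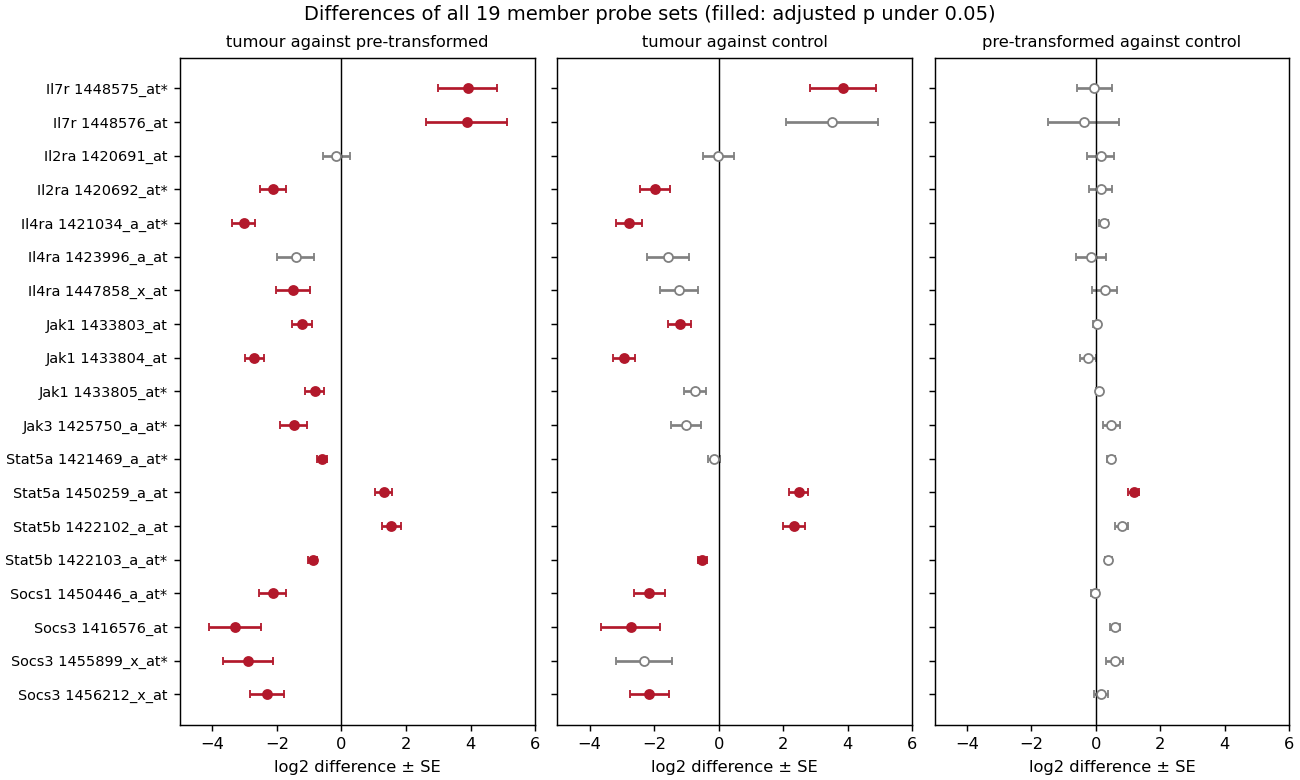
Log2 difference with its standard error for all 19 probe sets in tumours against pre-transformed cells, tumours against controls and pre-transformed cells against controls. Filled red points have a limma adjusted p under 0.05, and * marks the probe set that stands for the gene. In tumours against pre-transformed cells 4 probe sets were called higher (2 of Il7r, 1 of Stat5a, 1 of Stat5b) and 13 lower.

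Over all probe sets, 17 of 19 were called in tumours against pre-transformed cells, 4 higher and 13 lower, with 49.8% of all probe sets called. The groups did not overlap on 15 of them, against 54.1% of all probe sets. Against controls 11 were called, 3 higher and 8 lower, with 39.9% of all probe sets called, and 17 did not overlap, against 57.4% of all probe sets. Those 11 became 4 without control 1 and 6 without control 2, where the calls over all genes fell from 5323 to 2584 and 3182. All 19 had passed the filter on low signals. The probe sets of Il7r passed it only through the tumours. Those of Il2ra, and 1447858_x_at of Il4ra, passed it only through the sorted cells. With tumour 2 as the only tumour, 9 of 9 genes were called against pre-transformed cells in the directions above, where 7124 of all 11644 genes were called, among them Il4ra (−3.55), Jak1 (−1.57), Socs1 (−2.12) and Socs3 (−5.48). Against controls 8 of 9 were called with tumour 2 alone, where 6666 of all genes were called. The other log2 differences with tumour 2 alone were −2.08 for Jak3, −0.99 for Stat5b, −1.86 for Il2ra and −0.47 for Stat5a.

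Other genes of the pathway were read from 7 lists with 65 genes. The array named 63 of them, and 53 could be tested. In tumours against pre-transformed cells 6 were called higher and 27 lower, with a median log2 difference of −0.79, and against controls 6 higher and 25 lower, with a median of −0.71. Of all genes, 23.9% were called higher and 31.0% lower in the first comparison, and 20.5% and 25.2% in the second. Over all genes the medians were −0.12 and −0.08. Between pre-transformed and control cells 0 of the 53 were called by limma, with 1.63% of all genes called. The median was 0.08, against 0.02 over all genes.

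The cytokines themselves were near the bottom of the scale. None of 7 cytokine genes, those of 6 γc cytokines and Tslp, whose receptor uses IL-7Rα without γc, passed the filter. The brighter probe set of Il7, the ligand, normally made by thymic epithelium, read 16.2, 2.7, 11.1 and 9.8 in tumours, 3.6 to 5.6 in pre-transformed cells and 2.9 and 5.3 in controls. Il2rb, the β chain shared by the IL-2 and IL-15 receptors, was not tested and read 7.4, 1.5, 31.9 and 14.4 in tumours, 0.9 to 8.5 in pre-transformed cells and 0.9 and 6.1 in controls on its first probe set.

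Among 4 other receptor chains tested, Il9r was called higher and Il15ra, Il21r and Crlf2 lower in both tumour comparisons. Il21r, the IL-21 receptor, read 51.4, 45.0, 133.3 and 82.0 in tumours, against 353.9 to 475.8 in pre-transformed cells and 481.3 and 494.3 in controls, a log2 difference of −2.54 against pre-transformed cells (limma adjusted p = 0.000187, 5.80-fold lower). Crlf2, which pairs with IL-7Rα in the TSLP receptor, averaged 99.9 in tumours, 173 in pre-transformed cells and 208 in controls, and Il9r and Il15ra were dim in all groups. Il9r passed the filter through the tumours and Il15ra through the sorted cells. All 6 other JAK and STAT genes tested were called lower against pre-transformed cells, and 5 of 6 against controls, all but Stat2. In these comparisons 31.0% and 25.2% of all genes were called lower. Stat4, which transmits IL-12 signals, fell to 14.7, 0.6, 2.0 and 25 in tumours, against 103.7 to 135.1 in pre-transformed cells and 188.0 and 149.6 in controls (at least 3.16-fold lower than pre-transformed cells, limma adjusted p = 0.00473). Stat3 averaged 223 in tumours, 618 in pre-transformed cells and 480 in controls, and Stat6, the IL-4 transducer, 279, 657 and 702 in the same groups.

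Of 16 other inhibitors of cytokine signalling, 2 were called higher and 6 lower in each tumour comparison. The shares of all genes called were 54.9% against pre-transformed cells and 45.7% against controls. Socs5 went against Socs1 and Socs3: it read 107.1, 362.1, 433.1 and 340.5 in tumours, 49.7 to 85.6 in pre-transformed cells and 66.4 and 53.5 in controls (log2 difference 2.00 ± 0.44 against pre-transformed cells, limma adjusted p = 0.00345, 4.01-fold higher). Ptpn2, a phosphatase that acts on JAK1, JAK3 and STAT5, averaged 1538 in tumours, 743 in pre-transformed cells and 693 in controls. Cish, a classic STAT5 target that feeds back on its receptors, was dim in every group (10 to 22.4 in tumours, 12.2 to 19 in pre-transformed cells, 15.4 and 21.2 in controls).

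Of 9 genes regulated by STAT5, 1 was called higher and 2 lower in each tumour comparison. The shares of all genes called were 54.9% against pre-transformed cells and 45.7% against controls. Bcl2, the survival gene that IL-7 sustains, read 41.9, 14.8, 55.2 and 68.7 in tumours, 56.8 to 65.8 in pre-transformed cells and 58.7 and 69.7 in controls, overlapping and without a call (limma adjusted p = 0.234 against pre-transformed cells). Pim1, a kinase gene induced by STAT5, read 165.5 to 212.9 in tumours, 303.3 to 461.5 in pre-transformed cells and 541.7 and 610.1 in controls. It was lower in tumours (log2 difference −0.90 against pre-transformed cells, adjusted p = 0.0019) and all pre-transformed samples lay below both controls (−0.66, adjusted p = 0.104). Bcl6, a repressor that STAT5 holds down in other lymphocytes, read 113.8 to 251.1 in tumours, 790.8 to 925.7 in pre-transformed cells and 997.2 and 1096.9 in controls (5.18-fold lower than pre-transformed cells, adjusted p = 4.02e-05). Ccnd2, the cyclin D2 gene, read 56.6, 66.1, 207.6 and 47.9 in tumours, against 6.2 to 8.7 in pre-transformed cells and 4.6 and 10.9 in controls (at least 1.79-fold higher, adjusted p = 0.000497), and passed the filter through the tumours. The members of this list thus moved in both directions.

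In the PI3K arm 7 of 9 genes were called lower and 0 higher in both tumour comparisons. The shares over all genes were 31.0% lower and 23.9% higher against pre-transformed cells, and 25.2% lower and 20.5% higher against controls. Pik3cd, the catalytic subunit p110δ of leukocytes, read 111.0, 101.5, 78.8 and 113.7 in tumours, against 596.3 to 845.2 in pre-transformed cells and 530.6 and 623.7 in controls (6.73-fold lower than pre-transformed cells, limma adjusted p = 8.6e-06). Among 11 tested regulators of Il7r transcription, Runx3 and Spi1 were called higher and Foxo3 and Runx1 lower in both comparisons, and Foxp1 was called lower against pre-transformed cells. Runx3, needed for CD8 lineage cells, read 223.0, 62.8, 276.2 and 169.7 in tumours, 24.5 to 27.5 in pre-transformed cells and 29.8 and 32.2 in controls (at least 3.66-fold higher, adjusted p = 0.000729). Spi1, the PU.1 gene of myeloid cells and progenitors, read 35.7, 11.2, 47.8 and 36.8 in tumours, 8.8 to 10 in pre-transformed cells and 5.1 and 7.6 in controls, and passed the filter only through the tumours. It was lowest in tumour 2, which also had the lowest myeloid sum of the tumours. Foxo1, an activator of Il7r in mature T cells, read 152.2, 183.9, 332.2 and 261.0 in tumours, 242.8 to 387.6 in pre-transformed cells and 171.0 and 195.1 in controls. No comparison called it, and the log2 difference between pre-transformed and control cells was 0.69 ± 0.20 (adjusted p = 0.125). Gfi1, a repressor of Il7r, was bright throughout and not called (685.4 to 1212.4 in tumours, 990.3 to 1271.6 in pre-transformed cells, 839.4 and 998.0 in controls).

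**Figure D5:**
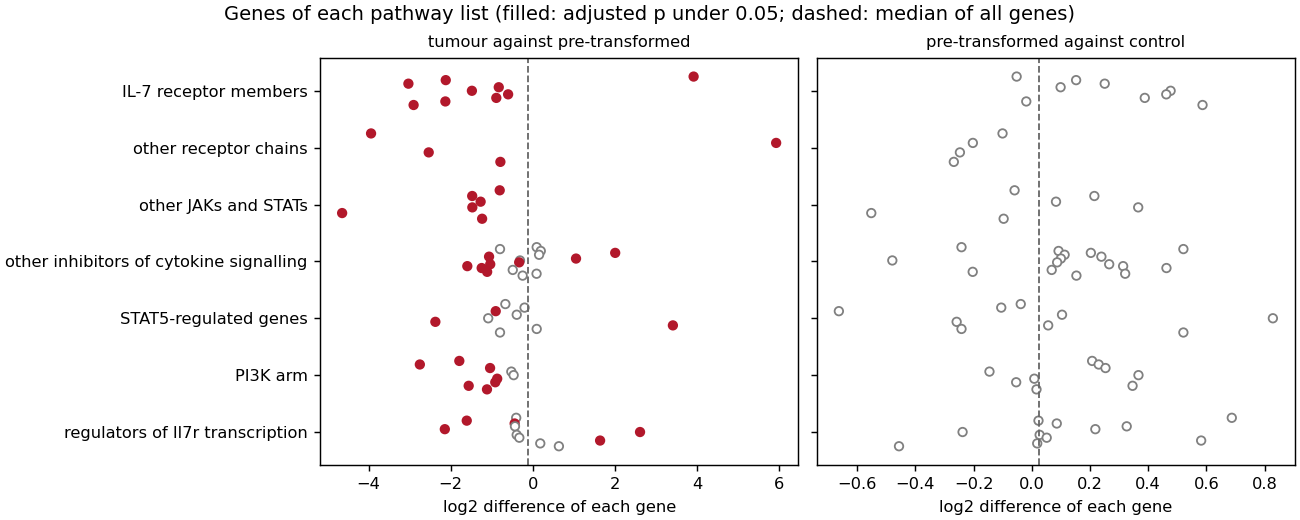
Log2 difference of each tested gene in 7 groups of the pathway, for tumours against pre-transformed cells (left) and pre-transformed cells against controls (right, with a narrower axis). Filled red points have a limma adjusted p under 0.05, and the dashed line is the median of all genes. Called genes lie mostly left of the line in tumours, and none is filled on the right.

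The genes whose signals followed the widest-ranging members most closely were found by Pearson correlation of log2 signal over the 9 arrays, given as a description. The arrays share their groups, so much of each value is the difference between tumours and sorted cells. Il7r was most like Mcoln2 (r = 0.984), Dnmt3b (0.982) and 2610524H06Rik (0.975). Dnmt3b, a de novo DNA methyltransferase gene, averaged 72.4 in tumours, 24.1 in pre-transformed cells and 28.4 in controls. Il4ra was most like Hectd4 (r = 0.999), Ubl5 (0.998) and Pbx2 (0.998), and Socs1 was most like Traf4 (0.999), Ppp2r5b (0.995) and Ppard (0.995). Socs3 was most like Cd8b1 (r = 0.990), the β chain of CD8, which averaged 3705 in tumours, 6171 in pre-transformed cells and 5525 in controls, and then Rasa3 and Armcx3 (both 0.987).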

How the data were processed

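RNA of 9 mice was read on 1 array each. The deposited values are MAS5 signal intensity on a linear scale (per the submitters' processing notes, which name no version), and their trimmed mean was 100 on every array by calculation. Values of 0 (218) were set to 0.1, and log2 values were used with no further normalization. Probe sets at or above their array's median on at least 2 arrays were kept (26421 of 45037), and each gene was represented by its brightest kept probe set (11644 genes). GEO's platform annotation, which can be old, gave 34945 probe sets 1 gene, 932 several and 9160 none.

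Tests used limma 3.58.1 in R 4.3.3 (lmFit, eBayes with trend). The 5 sorted arrays had a fit of their own, and tumour comparisons used all 9 arrays. A call is a Benjamini-Hochberg adjusted p under 0.05 over all genes or all kept probe sets. The method was tested on simulated data. The members, lists, marker genes and the rule for named genes were chosen with earlier results of these data known. That rule named all members, the 3 largest called rises and falls of the pathway lists with a group above the 65th percentile, and Bcl2, Cish, Pim1, Foxo1, Gfi1, Il2rb and Il7; Stat3, Stat6, Ptpn2, Crlf2 and Spi1 were added after their values were seen. Alternatives were other filters, quantile normalization, median centring, an offset of 10, averaged probe sets, only probe sets without suffix, no trend, other arrays in the fit, a replicate block, a floor of 40 and each array left out, and, chosen after seeing the data, tumour 2 as the only tumour. The number of arrays limits the precision. Python 3.11.15 with matplotlib 3.10.9 made the figures.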

Additional observations from a re-analysis of the deposited data

Results flagged for a closer look

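Among the 19 probe sets examined over the 4 tumours, 1 had a tumour far from the other 3 (its gap to the nearest, over the whole range, passed Dixon's critical value, which chance passes in about 1 of 20 groups). Socs3 1455899_x_at read 3.3 in tumour 2, against 33.4 to 39.4 in the other tumours.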

How the results depend on the processing

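Socs1, Socs3 and Il4ra were called lower in tumours against pre-transformed cells in every alternative that tested them, and Socs1 and Il4ra also against controls. Il7r was called against pre-transformed cells in 20 of 21 alternatives. It was lost with a common floor of 40 (log2 difference 1.45, adjusted p = 0.281), where Il2ra, Jak1 and Jak3 were lost too. Il7r in sorted cells and in tumour 2 (31.5), Il2ra in all groups, and Jak3 in tumours and controls lay below the floor. Tumour 4 was just above it for Il7r (41.0). No value of Jak1 1433805_at lay below the floor, and its log2 difference stayed at −0.83.

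Centring arrays on their median moved the all-gene median to −0.38, −0.47 and −0.11 (tumours against pre-transformed, tumours against controls, pre-transformed against controls; −0.12, −0.08 and 0.02 before). Genes called were then 1877 higher and 4279 lower, 1253 and 4132, and 77 and 113, in place of 2785 and 3607, 2387 and 2936, and 129 and 61. Member genes called against controls were 8 with centring and 8 with tumour 2 alone, and 3 of the 4 genes tested without suffix probe sets, in place of 5. Member probe sets called there were 7 with only the compared arrays in the fit and 5 of 8 without suffix, in place of 11. Against pre-transformed cells, member genes called were 4 of 4 without suffix and 5 with the floor, in place of 9, and probe sets 7 of 8 and 11, in place of 17. Over all genes, 5467 of 10172 were called there without suffix and 5142 of 11644 with the floor.

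Between pre-transformed and control cells 190 genes were called, 74 with no filter, 1 with no trend, 6 with all arrays in the fit and 14 with the floor. Member genes called were 1 with quantile normalization and 2 with the mean of probe sets, in place of 0, where 198 and 161 of all genes were called. The 1 member probe set became 0 with no filter, centring, no trend, all arrays, the replicate block or the floor. It carries the suffix _a, so it was not tested where only probe sets without suffix were used. Uncalled differences that changed sign were those of Jak1 (−0.033 with centring, −0.037 with the mean of probe sets), Il7r (0.006 with the offset, −0.40 to 0.35 with arrays left out), Il2ra (−0.18 to 0.49 with arrays left out) and Socs1 (0.005 with the replicate block, −0.12 to 0.0815 with arrays left out). With the mean of probe sets Stat5a and Stat5b turned to 0.35 and 0.33 against pre-transformed cells and to 1.17 and 0.92 against controls.

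With each array left out in turn, genes called were 19 to 292 (pre-transformed against controls), 5123 to 6513 (tumours against pre-transformed) and 2584 to 5674 (tumours against controls, lowest without control 1). Member genes called were 0 to 1, 7 to 9 and 2 to 8, and member probe sets 0 to 0, 13 to 17 and 4 to 13, in the same order. Replicate numbers name different mice, and same-numbered arrays deviated with correlations of −0.02 to 0.09, so they share only a number. With the replicate block, 8 member genes were called against pre-transformed cells, Jak3 being lost (adjusted p = 0.0515), and 6 against controls, Jak1 being gained (adjusted p = 0.0214). The cause of these changes was not tested.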
